A study of Felis catus with 23 samples.

Results

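A group of 4 microRNA (miRNA) names linked to red blood cells were followed in cat serum: hsa-miR-451a, hsa-miR-144-3p, hsa-miR-486-5p and hsa-miR-486-3p. They belong to the 2026 miRNA names on an Agilent 1-colour array designed for human miRNAs, and they were chosen by name as annotated on the array, leaving out control spots. Of the 4 names, 3 passed the detection filter and were among the 543 names tested on the scanner values, of which 504 are human names. The other name, miR-486-3p, was below detection on nearly every array and was followed in the log2 values that the authors deposited and in its raw spot signals.

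Serum came from 11 cats with hypertrophic cardiomyopathy (HCM), a disease in which the wall of the heart thickens, and from 12 healthy cats. Each array held the RNA of 1 cat, and the labels give disease status and serum as the tissue, with no breed, age, sex, treatment, heart failure stage or genotype. Blood was left to clot and was centrifuged, and total RNA including small RNA was isolated from the serum. Serum is a bulk fluid, so a larger number of contributing cells and more RNA released per cell cannot be told apart. The probes are named for human miRNAs and were not matched to cat sequences here.

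MiR-451a and miR-144 are cut from neighbouring hairpins of one primary transcript, which the transcription factor GATA1 switches on as red cell precursors mature. MiR-451a is unusual in being processed by the Argonaute protein AGO2 and not by Dicer, and it is among the most abundant miRNAs of mature red cells. MiR-486 lies in an intron of the ankyrin gene ANK1 and is made in red cell precursors and in heart and skeletal muscle. Its hairpin gives a dominant 5p strand and a rarer 3p strand. When red cells break during blood collection these miRNAs enter the serum, and miR-451a is commonly read against miR-23a-3p, which varies little with haemolysis, to grade such samples.

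The arrays lay on 3 slides, with 3 HCM and 4 healthy arrays on slide 1 and 4 of each on slides 2 and 3. The HCM sera all sat in slide row 1 and the healthy sera in row 2, so row and group cannot be told apart. An array detected between 323 and 615 names, its 75th percentile intensity lay between 90.5 and 699, and 0 spots were saturated. The 4 arrays with the fewest detected names were healthy replicates 25, 22 and 20 and HCM replicate 2. Levels below are log2 of the processed intensity after each array was scaled to the 75th percentile of the 508 probes detected on all 23 arrays, with a floor at 2.50. Precision depends on how many arrays each group had and on the spread of a name over cats.

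The 3 tested names were each read by a pair of probes with up to 15 spots per probe and array. All of these probes were detected on 23 of 23 arrays except the dimmer miR-451a probe, which was detected on 22. The paired probes of each name followed each other over the arrays with r = 0.999. Among the spots of the probe used, the median coefficient of variation on an array was 6.84% for miR-451a, 5.46% for miR-144-3p and 4.50% for miR-486-5p.

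MiR-451a, the most red-cell-specific of the set, varied more over the 23 sera than any other tested name, and its mean did not separate HCM from healthy cats. On slide 1 it was at 4.53, 4.30 and 6.15 in HCM replicates 1, 2 and 3, and at 9.56, 5.05, 5.22 and 5.33 in healthy replicates 22, 23, 25 and 26. On slide 2 it was at 4.91, 6.57, 2.77 and 5.40 in HCM replicates 5 to 8 and at 5.51, 6.48, 6.37 and 5.40 in healthy replicates 18 to 21. On slide 3 it was at 4.58, 9.02, 5.78 and 7.14 in HCM replicates 9 to 12 and at 4.51, 3.80, 12.34 and 7.86 in healthy replicates 14 to 17. The groups overlapped on every slide, and the arrays farthest above the rest were healthy replicates 16 and 22 and HCM replicate 10. HCM replicate 7 was lowest, close to the floor, and the distance from it to healthy replicate 16 was 9.57 on the log2 scale, or 759-fold.

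The mean level of miR-451a was 5.56 ± 1.66 (SD, n = 11) in HCM and 6.45 ± 2.41 (SD, n = 12) in healthy cats, while the medians were 5.40 and 5.46. The difference, HCM minus healthy, was -0.90 with a standard error of 0.80 and a 95% interval of -2.55 to 0.76 (limma, p = 0.276, Benjamini-Hochberg adjusted p = 0.799). Of the 11 HCM arrays, 5 lay above the healthy median and 6 below it, and 2 healthy arrays lay above every HCM array. Without healthy replicate 16 the difference was -0.36, and without scaling between arrays it was -0.47.

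MiR-144-3p, made from the same primary transcript as miR-451a, had a narrower range and a mean on the other side of 0. On slide 1 it was at 6.03, 5.02 and 7.01 in HCM and at 7.71, 5.35, 6.47 and 6.62 in healthy cats, in the same order of replicates as above. On slide 2 it was at 7.38, 7.78, 5.80 and 7.12 in HCM and at 5.28, 8.26, 5.21 and 5.06 in healthy cats. On slide 3 it was at 6.07, 9.06, 5.44 and 6.53 in HCM and at 5.83, 5.73, 6.84 and 6.57 in healthy cats. The groups overlapped on every slide, and HCM replicate 10 was the highest of all arrays, as 1 of 11 HCM arrays above every healthy array. Healthy replicate 16, which stood far above the rest in miR-451a, was within the range of the other arrays in miR-144-3p.

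The mean level of miR-144-3p was 6.66 ± 1.17 (SD, n = 11) in HCM and 6.24 ± 1.02 (SD, n = 12) in healthy cats, and the medians were 6.53 and 6.15. The difference of 0.41 had a standard error of 0.43 and a 95% interval of -0.46 to 1.29 (limma, p = 0.341, Benjamini-Hochberg adjusted p = 0.799). It was 0.17 without HCM replicate 10 and 0.83 without scaling between arrays. After normexp background correction it was 0.21, with an offset of 50 that shrinks log2 differences of dim probes.

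MiR-486-5p, the dominant strand of the miR-486 hairpin, had nearly equal means in both groups. On slide 1 it was at 11.11, 11.06 and 12.35 in HCM and at 12.77, 10.81, 11.17 and 11.24 in healthy cats. On slide 2 it was at 13.36, 13.02, 10.53 and 12.46 in HCM and at 11.34, 12.96, 10.43 and 11.45 in healthy cats. On slide 3 it was at 11.63, 11.92, 11.19 and 10.02 in HCM and at 12.83, 10.33, 12.99 and 11.24 in healthy cats. High and low arrays occurred in both groups on every slide, and 6 of 11 HCM arrays lay above the healthy median.

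The mean level of miR-486-5p was 11.70 ± 1.04 (SD, n = 11) in HCM and 11.63 ± 0.99 (SD, n = 12) in healthy cats. The difference of 0.07 had a standard error of 0.40 and a 95% interval of -0.75 to 0.88 (limma, p = 0.867, Benjamini-Hochberg adjusted p = 0.983). Quantile normalization gave -0.045, on the other side of 0, and so did leaving out any of 6 single arrays: -0.10 without HCM replicate 5, -0.07 without HCM 6, -0.01 without HCM 8 or healthy 23, -0.04 without healthy 20 and -0.05 without healthy 15.

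**Figure D1:**
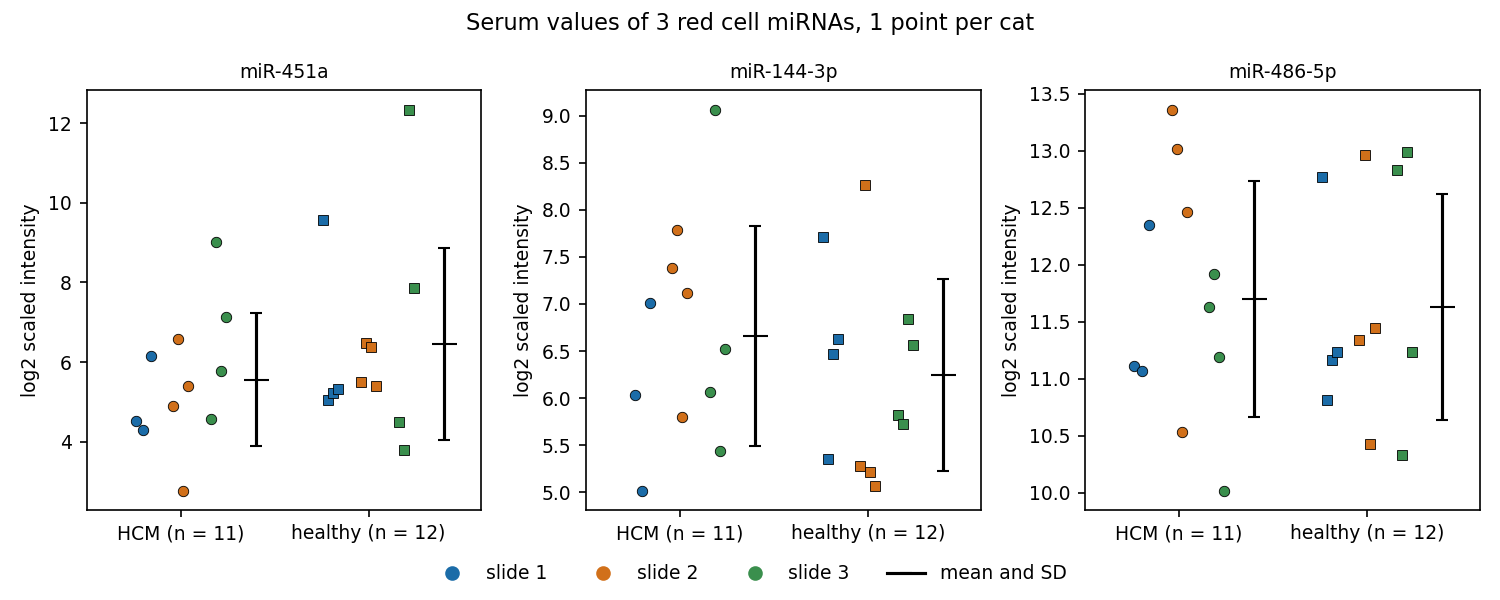
Level of miR-451a, miR-144-3p and miR-486-5p in each serum, as log2 scaled intensity on the vertical axis, with HCM arrays (circles) and healthy arrays (squares) coloured by slide and the mean and SD at the right of each group. The groups overlap in all 3 panels, and healthy replicate 16 stands at 12.34 in miR-451a.

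None of the 3 names was called between HCM and healthy cats, and the same held for every tested name. In limma, 0% of the names (0 of 543) passed an adjusted p of 0.05, the lowest adjusted p was 0.303, and 36 names (6.63%) had an unadjusted p under 0.05, and none of the 3 names was among them. The median difference over the 543 names was -0.10, with 182 names positive and 361 negative, so the miR-451a difference lay on the side of most names and those of miR-144-3p and miR-486-5p did not. A permutation rank test called 1 of the 543 names, none of these 3, for which its adjusted p was 0.944, 0.925 and 1.

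**Figure D2:**
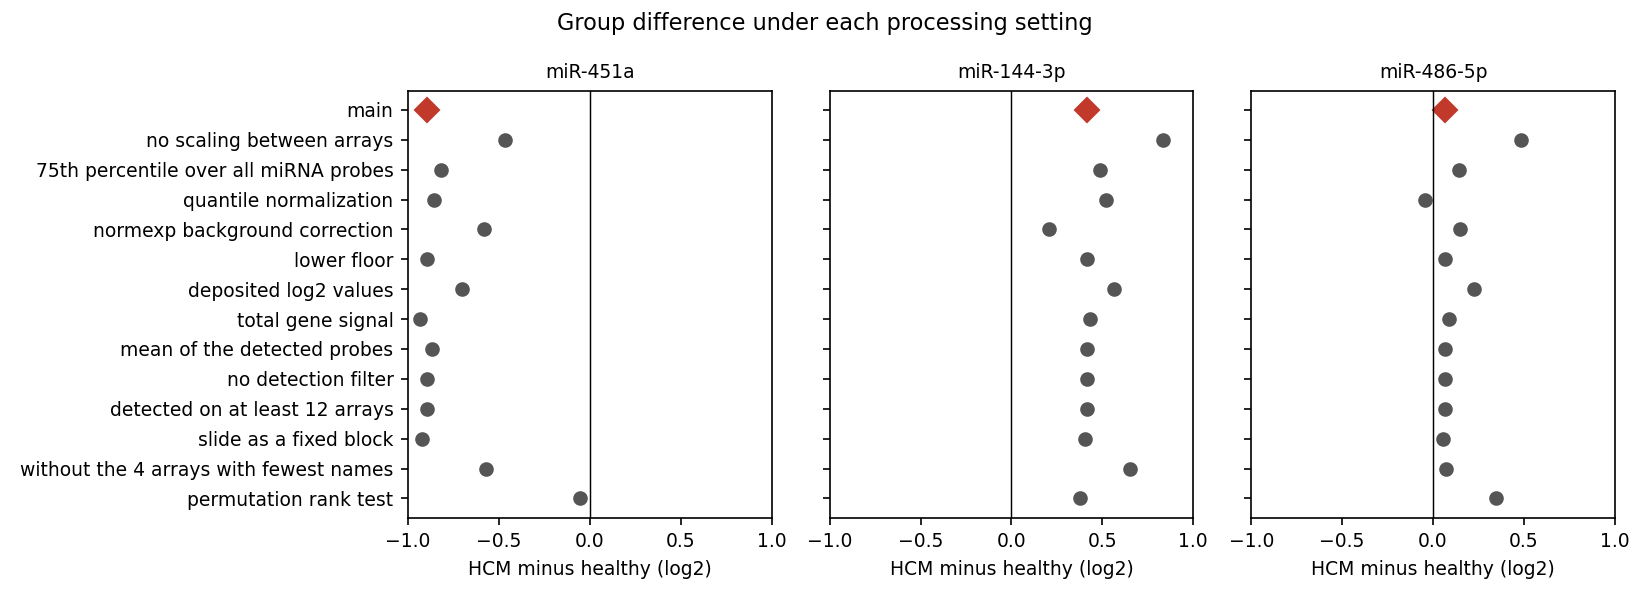
Difference between HCM and healthy cats (log2, horizontal axis) for 3 miRNAs under the main setting (diamond) and 13 other settings (circles), where the permutation rank test is given as the difference in medians. MiR-451a stays below 0 and miR-144-3p above 0 in all settings drawn, while miR-486-5p falls at -0.045 after quantile normalization. The lower floor and the changed detection filters could not move these names and repeat the main value.

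The sign of the group difference changed between slides for miR-144-3p and miR-486-5p. For miR-451a the differences were -1.30, -1.03 and -0.50 on slides 1, 2 and 3, and they moved with single arrays. Without healthy replicate 22 the slide 1 difference was -0.21, without HCM replicate 7 that on slide 2 was -0.31, and on slide 3 it turned to 1.24 without healthy replicate 16 and to 0.18 without HCM replicate 9. MiR-144-3p differed by -0.52, 1.07 and 0.53, the last turning to -0.23 without HCM replicate 10. MiR-486-5p differed by 0.01, 0.80 and -0.66, and on slide 1 it was below 0 without HCM replicate 3 (-0.41) or healthy replicate 23 (-0.22), 25 (-0.10) or 26 (-0.07). Within slides, exact permutation p-values of these 9 differences lay between 0.286 and 1, where the smallest that 3 or 4 arrays against 4 can give is 0.0286. Adjusted over 12 such tests by Benjamini-Hochberg, they were 0.648 or more. The interaction of group and slide had a limma adjusted p of 0.998 for each name, against a background of 0% (0 of 543) at that adjusted threshold and 2.39% (13 names) unadjusted.

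No difference between slides passed in these names, which does not show that there was none. MiR-451a averaged 5.73 on slide 1, 5.43 on slide 2 and 6.88 on slide 3, and the limma F test of slide gave adjusted p-values of 0.535 for miR-451a, 0.976 for miR-144-3p and 0.787 for miR-486-5p. At that threshold 0% of names (0 of 543) were called for slide, and 12.5% (68 names) had an unadjusted p under 0.05. Ordered by mean, miR-451a ran from HCM on slide 2 (4.91 ± 1.59, n = 4) and HCM on slide 1 (4.99 ± 1.01, n = 3) through healthy cats on slide 2 (5.94 ± 0.56, n = 4) and slide 1 (6.29 ± 2.18, n = 4). The highest means were HCM on slide 3 (6.63 ± 1.91, n = 4) and healthy cats on slide 3 (7.13 ± 3.90, n = 4), each ± SD. Neighbours in this order differed by less than the larger of their SDs.

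Among all 543 tested names, miR-451a had the largest SD over arrays, 2.09 against a median of 0.54. MiR-144-3p ranked 29 with an SD of 1.09, and miR-486-5p ranked 45 with an SD of 0.99. Without healthy replicate 16 and HCM replicate 10, the SD of miR-451a fell to 1.47 and its rank to 2. Group accounted for 4.78% of the variance of miR-451a over arrays, 3.76% of that of miR-144-3p and 0.119% of that of miR-486-5p. Slide added 9.94%, 0.435% and 4.48% in the same order of names. Group and slide take up some variance even where they have no effect, and that share was not worked out. Neither passed its limma test in any of these 3 names, so the percentages show no effect of group or slide.

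Over the cats, miR-144-3p varied together with miR-486-5p and with miR-451a, while the relation of miR-451a with miR-486-5p did not pass in the main setting. The r of miR-144-3p with miR-486-5p was 0.62 (permutation p = 0.00175, adjusted over 12 relations p = 0.0105) and rho 0.66 (adjusted p = 0.00762), over 23 arrays. Without the 2 arrays farthest from the miR-144-3p median, HCM replicate 10 and healthy replicate 19, r was 0.66. Within slides 1, 2 and 3 it was 0.85, 0.88 and 0.21. The call was lost without the 4 arrays with the fewest detected names (r = 0.56, permutation, adjusted p = 0.078). In HCM alone r was 0.59 (n = 11) and in healthy cats 0.67 (n = 12).

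For miR-451a and miR-144-3p, which share a primary transcript, r was 0.51 (permutation p = 0.0123, adjusted p = 0.0369) and rho 0.52 (adjusted p = 0.0342). Without healthy replicates 16 and 22, the 2 arrays farthest from the miR-451a median, r was 0.58, and within slides 1, 2 and 3 it was 0.82, 0.31 and 0.60. In HCM r was 0.74 and in healthy cats 0.50. This call was lost under 6 other settings and without any of 7 single arrays: r was 0.43 without HCM replicate 10, 0.47 without healthy 22, 0.49 without HCM 2, 0.50 without HCM 7 or healthy 15, 0.51 without healthy 23 and 0.52 without healthy 18.

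Between miR-451a and miR-486-5p, r was 0.39 (permutation p = 0.0634, adjusted p = 0.152) and rho 0.35 (adjusted p = 0.203). Without healthy replicates 16 and 22, r was 0.16, and within slides 1, 2 and 3 it was 0.88, 0.38 and 0.42. On residuals from the group and slide means r was 0.49 (permutation, adjusted p = 0.0416). This was the only 1 of 11 other settings in which the relation passed, and it passed with no single array left out.

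**Figure D3:**
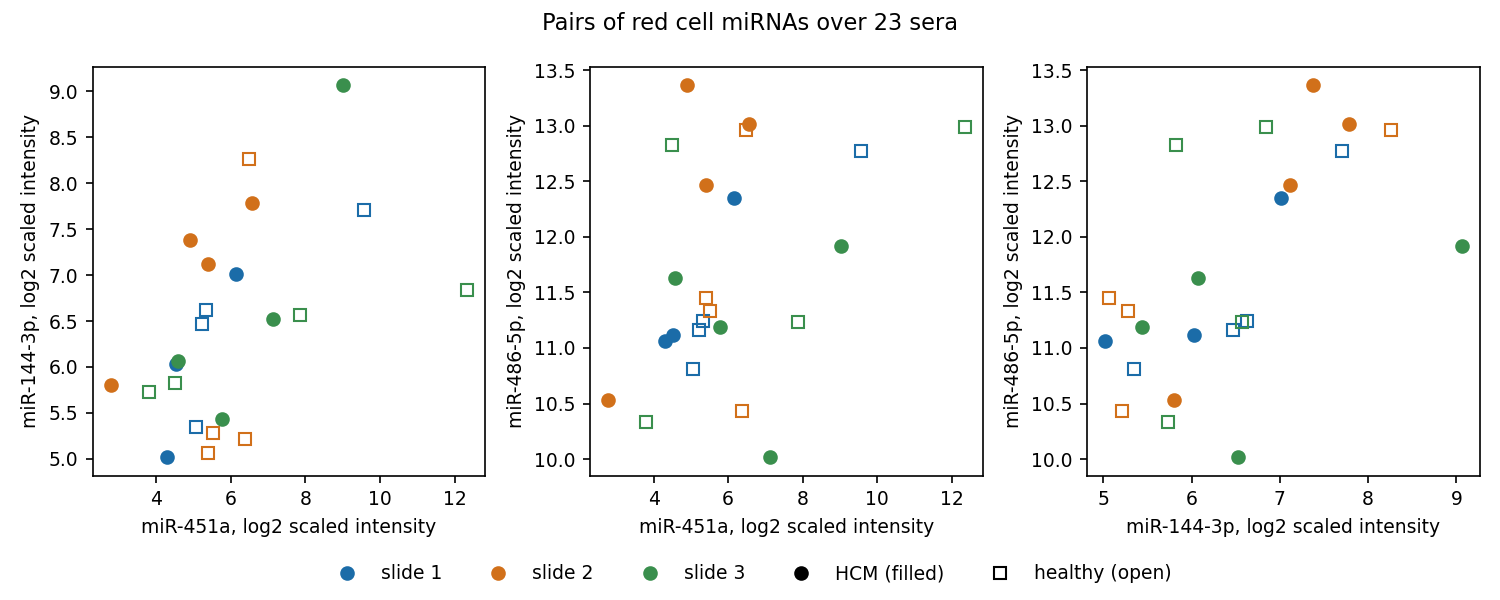
Each pair of miR-451a, miR-144-3p and miR-486-5p over 23 sera, both axes in log2 scaled intensity, with slides by colour and HCM filled, healthy open. MiR-144-3p and miR-486-5p rise together (r = 0.62), and healthy replicate 16 lies far to the right in both panels that plot miR-451a.

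The difference between miR-451a and miR-144-3p on the same array removes what changes both alike, including the scaling. Array brightness need not cancel, since over all arrays its r was -0.21 with miR-451a and 0.22 with miR-144-3p. Its relation with the difference was not tested. The difference was -1.10 ± 1.12 (SD, n = 11) in HCM and 0.21 ± 2.10 (SD, n = 12) in healthy cats, a gap of -1.31 that was -0.83 without healthy replicate 16. Of 11 HCM arrays, 9 lay below the healthy median, and 4 healthy arrays lay above every HCM array. The share of other pairs of names with such counts was not worked out. Within slides 1, 2 and 3 the gap was -0.78, -2.09 and -1.03 (exact permutation p of 0.571, 0.0857 and 0.686). On slide 3 the gap turned to 0.50 without healthy replicate 16. Healthy replicate 16 was at 5.50, while the highest HCM array, replicate 12, was at 0.61. These values have no zero shared between probes, so only their change from cat to cat can be read, and they were looked at after the levels were known.

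MiR-23a-3p, the usual reference for haemolysis, was at 7.01 ± 1.42 (SD, n = 11) in HCM and 7.03 ± 0.96 (SD, n = 12) in healthy cats, a difference of -0.02 (limma, Benjamini-Hochberg adjusted p = 0.991). Over all 23 sera it moved with miR-451a (r = 0.66, permutation p = 0.00061, adjusted p = 0.00732) and with miR-144-3p (r = 0.52, adjusted p = 0.0369). With miR-486-5p its r was 0.17 (adjusted p = 0.578). The strength differed between subsets. Within slides 1, 2 and 3 r was 0.24, 0.61 and 0.93 with miR-451a, and 0.57, 0.29 and 0.74 with miR-144-3p. For miR-451a r was 0.65 in HCM and 0.80 in healthy cats, and for miR-144-3p 0.66 and 0.34. MiR-451a minus miR-23a-3p was highest in healthy replicates 16 and 22, at 3.22 and 2.31, above all HCM arrays, and averaged -1.45 in HCM and -0.58 in healthy cats. That gap of -0.87 was -0.53 without healthy replicate 16. The labels give no measure of haemolysis, and its part in the spread of miR-451a was not tested.

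Over all arrays, no relation of the members with array brightness or the number of names detected passed, but subsets of arrays differed in sign. The r of miR-451a was -0.21 with log2 brightness and -0.03 with names detected, that of miR-144-3p 0.22 and 0.30, and that of miR-486-5p -0.02 and -0.02. Adjusted p-values of r for these 6 relations were 0.321 or more. For miR-486-5p, r with brightness was -0.12, 0.67 and -0.71 on slides 1, 2 and 3, and with names detected -0.10, 0.75 and -0.67. In HCM alone, r with brightness and with names detected was 0.59 and 0.62 for miR-451a and 0.62 and 0.61 for miR-144-3p. In healthy cats it was -0.41 and -0.25 for miR-451a and -0.05 and -0.004 for miR-144-3p. For miR-451a, r with brightness was -0.37, -0.23 and -0.57 on slides 1, 2 and 3, and for miR-144-3p it was -0.03, 0.56 and 0.03. These subset values are descriptions, and the part of brightness in the relations between members was not tested.

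The nearest neighbours of each dominant strand were sought among the 503 other tested human names. By r over 23 arrays, given as a description, miR-451a was most like let-7i-5p (0.91), miR-19b-3p (0.85), miR-26a-5p (0.84), let-7b-5p (0.84) and miR-29b-3p (0.82). These 5 names sat at the floor on 8 to 12 of the 23 arrays, so their r rests on the arrays where they were seen. Without healthy replicates 16 and 22 they had r between 0.69 and 0.79. MiR-144-3p was most like miR-128 (0.76), miR-425-5p (0.75), miR-25-3p (0.74), miR-106b-5p (0.73) and miR-301b (0.73). MiR-301b was at the floor on 13 of 23 arrays and fell to r = 0.55 and rank 15 without HCM replicate 10 and healthy replicate 19.

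MiR-486-5p was most like miR-25-3p (0.83), miR-92a-3p (0.80), miR-423-5p (0.78), miR-425-5p (0.75) and miR-3907 (0.74). MiR-25-3p and miR-425-5p were thus among the nearest 5 of both miR-144-3p and miR-486-5p, and miR-451a shared 0 of its 5 with either. That 0 depends on the cut at 5. With miR-451a, miR-128, miR-106b-5p, miR-425-5p, miR-301b and miR-25-3p ranked 7, 9, 16, 20 and 29. MiR-92a-3p, miR-423-5p and miR-3907 ranked 23, 99 and 168 with it. Among 503 names ranked by r with miR-451a, miR-144-3p came 38 and miR-486-5p came 66. Ranked by r with miR-486-5p, miR-144-3p came 10 and miR-451a came 33.

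**Figure D4:**
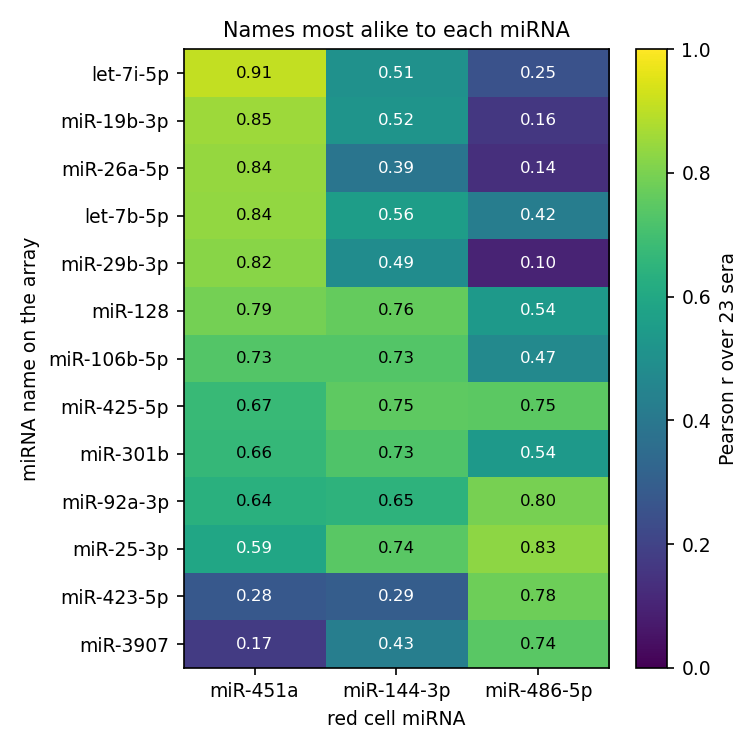
Pearson r over 23 sera (colour, printed in each cell) between miR-451a, miR-144-3p or miR-486-5p (columns) and the 13 names that were among the 5 most alike to any of them (rows). The names nearest to miR-451a have r of 0.82 to 0.91 with it and 0.10 to 0.42 with miR-486-5p. Those nearest to miR-486-5p have r of 0.17 to 0.67 with miR-451a. Each name was picked for its high r in these same arrays, so a lower r with another column is no test of a difference.

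Other miRNAs known from red cells were mostly below detection. Of 14 named, 6 were detected on no array, among them miR-144-5p, the opposite strand of the miR-144 hairpin, and miR-451b. The 4 tested were miR-106b-5p, miR-92a-3p, miR-25-3p and miR-22-3p. Their r with miR-451a was 0.73, 0.64, 0.59 and 0.27, and the median r of the list was 0.61 with miR-451a, 0.69 with miR-144-3p and 0.63 with miR-486-5p. Over all tested names the median r was 0.06, -0.11 and -0.01. Between HCM and healthy cats 0 of these 4 were called, with 2 higher and 2 lower and a median difference of -0.14.

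Markers of other blood cells were read the same way. Of 8 platelet miRNAs 4 were tested, with a median r of 0.49 with miR-451a, 0.37 with miR-144-3p and 0.16 with miR-486-5p. The r with miR-451a was 0.63 for miR-21-5p, 0.58 for miR-24-3p, 0.40 for miR-197-3p and 0.04 for miR-151a-3p. Of 8 leukocyte miRNAs 5 were tested, with median r of 0.14, 0.23 and 0.17 with the same 3 names. Between HCM and healthy cats 0 names of either list were called, with median differences of -0.06 for platelets (2 of 4 names higher) and -0.29 for leukocytes (5 of 5 names lower), against -0.10 over all tested names. Within that list miR-223-3p, a miRNA of neutrophils and monocytes, had an r of 0.82 with miR-451a, and miR-142-5p had 0.67, while miR-155-5p had 0.14, miR-181b-5p 0.07 and miR-181a-5p -0.04.

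The summed level of the tested platelet markers, given in log2, was 6.004 to 9.75 in HCM and 7.08 to 9.46 in healthy cats, and that of the leukocyte markers 6.40 to 8.30 and 6.57 to 8.72. The same sum for the 4 other red cell names was 9.71 to 12.19 in HCM and 9.63 to 12.26 in healthy cats. These ranges overlapped between the groups. The part of platelets and leukocytes in the spread of miR-451a was not tested.

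MiR-486-3p, the rarer strand, was the exception in the deposited values, where it was higher in HCM, but its raw signals were at the edge of background. It had 4 probes of 7 or 8 spots, detected on 1, 0, 0 and 0 of the 23 arrays, and the authors' table holds log2 values for the brighter 2. In the brighter of these, deposited values were 2.33, 2.77 and 1.50 in HCM and 2.17, 0.67, 1.82 and 1.66 in healthy cats on slide 1. On slide 2 they were 1.86, 1.62, 2.55 and 3.34 in HCM and 1.03, 0.93, 1.20 and 0.92 in healthy cats. On slide 3 they were 0.92, 2.76, 2.92 and 1.87 in HCM and 1.10, 1.24, 2.24 and 1.26 in healthy cats. The groups did not overlap on slide 2, as in 2.29% of deposited probes (40 of 1750) with every HCM array above every healthy array there. They overlapped on slides 1 and 3, and HCM replicate 9 shared the low end.

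In the dimmer probe, slide 1 held 2.01, 2.51 and 1.49 in HCM and 0.97, 1.03, 1.51 and 1.68 in healthy cats. Slide 2 held 1.75, 1.72, 2.65 and 3.19 in HCM and 1.46, 0.74, 1.13 and 0.95 in healthy cats. Slide 3 held 1.02, 2.56, 2.91 and 2.69 in HCM and 0.82, 1.18, 1.58 and 1.35 in healthy cats. On all arrays together, 9 of 11 HCM values lay above every healthy value, and HCM replicates 3 and 9 did not. A separation of 9 or more HCM arrays was found in 0.114% of deposited probes (2 of 1750), this probe included.

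The dimmer probe averaged 2.23 ± 0.67 (SD, n = 11) in HCM and 1.20 ± 0.31 (SD, n = 12) in healthy cats in the deposited log2 values. These deposited values differed by 1.03, with a standard error of 0.22 (limma over 1750 deposited probes, p = 6.89e-05, Benjamini-Hochberg adjusted p = 0.0368). The brighter probe averaged 2.22 ± 0.73 against 1.35 ± 0.51, a difference of 0.87 with a standard error of 0.25 (limma, p = 0.0021, adjusted p = 0.179), so 1 of the 2 probes was called. The called probe was detected on 0 of 23 arrays, so these sizes describe the deposited values and are no fold of the miRNA. In this fit 0.743% of deposited probes (13 of 1750) were called, all 13 higher in HCM, and 6.4% (112) had an unadjusted p under 0.05. The earlier analysis of these data had already shown this difference, so it is no independent support.

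Several settings ended the call of the dimmer probe. Leaving out 1 array moved the limma adjusted p between 0.00908 and 0.0815, above the 0.05 threshold without HCM replicate 7 (0.0781), 8 (0.0792) or 12 (0.0574), or healthy replicate 14 (0.0815), 18 (0.0525), 19 (0.0633), 20 (0.0634) or 21 (0.0696). A permutation rank test gave an adjusted p of 0.108. Within slides the difference was 0.71, 1.26 and 1.06, with exact permutation p of 0.143, 0.0286 and 0.114, the second being the smallest possible. The limma interaction of group and slide over deposited probes had an adjusted p of 0.998.

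The scanner signals show how little light lay behind these values. The mean processed intensity of the dimmer probe was 2.92 ± 1.96 (SD, n = 11) in HCM and 0.03 ± 0.82 (SD, n = 12) in healthy cats, and that of the brighter probe 3.43 ± 2.25 and 0.42 ± 0.95. After scaling, each probe was at or below the floor on 22 of 23 arrays, which left differences of 0.049 and 0.06 on the floored log2 scale. Of the spots, 11 of 77 in HCM and 0 of 82 in healthy cats were well above background for the brighter probe, in HCM replicates 7, 8, 10 and 11. For the dimmer probe it was 5 of 75 and 0 of 83, in HCM replicates 8, 10 and 11. No fold is given, because both groups were at the edge of background.

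On the linear scale, scaled but without a floor, HCM exceeded healthy by 2.97 for the dimmer probe (permutation p = 0.00011, Benjamini-Hochberg adjusted over 1750 probes p = 0.035) and by 2.76 for the brighter (p = 0.0014, adjusted p = 0.187). All 11 HCM arrays lay above the healthy median for the dimmer probe before scaling, and 10 of 11 for the brighter. The third and the fourth probes, not in the deposited table, had 0 spots well above background on any array. Their mean intensity was -0.28 ± 0.60 and 0.61 ± 0.74 in HCM and -0.65 ± 0.43 and -0.14 ± 0.62 in healthy cats (SD, n = 11 and 12), and 9 of 11 HCM arrays lay above the healthy median in each. The share of all probes with such counts was not worked out, and slide row and group cannot be told apart.

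**Figure D5:**
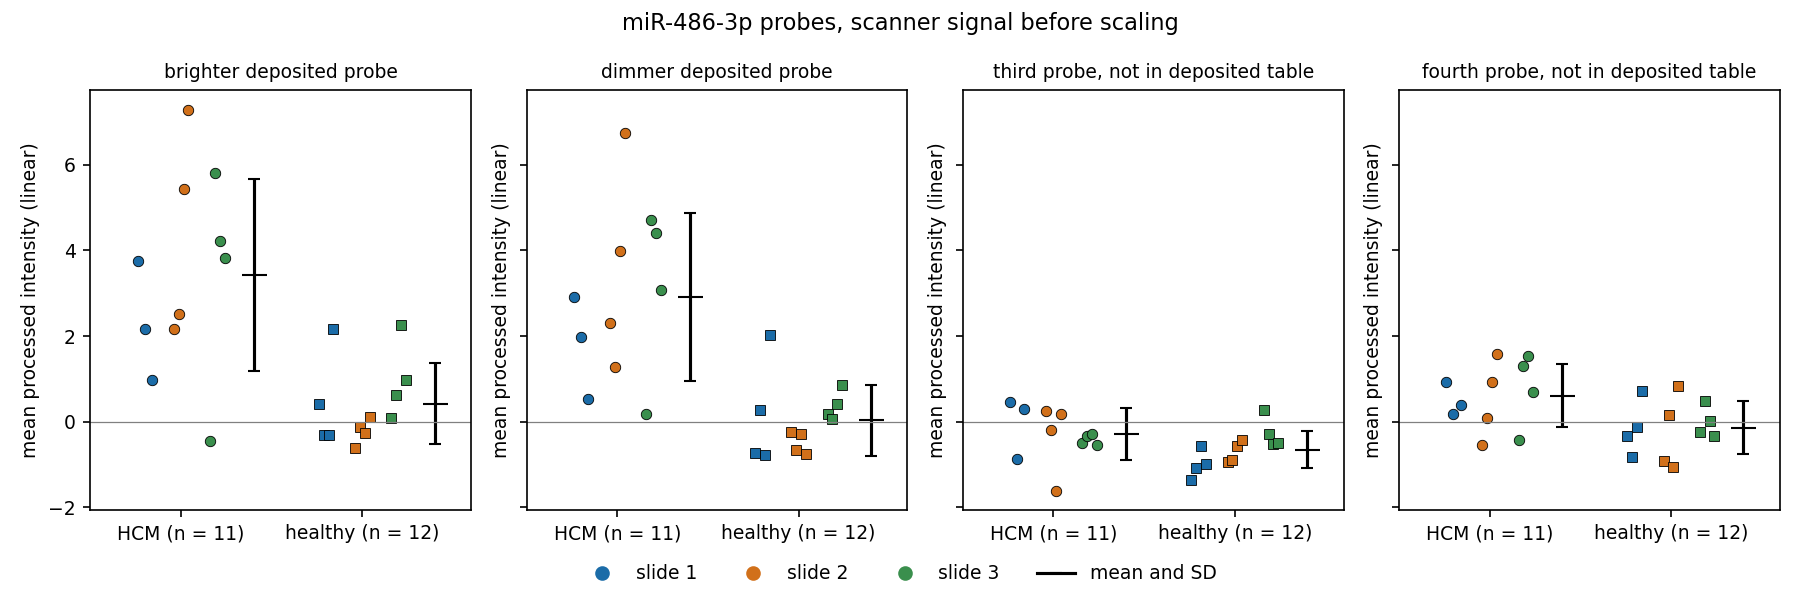
Mean processed intensity of the 4 miR-486-3p probes in each serum on a linear axis, before scaling, coloured by slide, with the mean and SD beside each group. HCM arrays reach 7.29 in the brighter deposited probe and 6.73 in the dimmer, while the third and the fourth probes stay near 0.

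With miR-486-3p at the edge of background, whether the strands of the miR-486 hairpin moved together could not be read. Over 23 arrays the r of the deposited miR-486-3p values with those of miR-486-5p was 0.07 for the brighter probe and -0.15 for the dimmer, given as a description. Their r with array brightness was -0.09 and 0.15. Of the 1750 deposited probes, 675 were detected on fewer than 6 arrays, and in those the median difference between HCM and healthy cats was -0.05, with 41.8% higher in HCM. Of the 13 called probes, 2 were of this kind.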

How the data were processed

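Serum miRNAs of 23 cats were measured on 1-colour arrays. The scanner files give, per the file headers, background-subtracted spot intensity on a linear scale and yes-or-no flags. The submitters' processing notes name Agilent Feature Extraction 10.7.3.1. The authors deposited a table of log2 values for 1750 miRNA probes with 965 names. Over probes above an intensity of 8 their correlation with the scanner's log2 signal was 0.987 to 0.9998 per array, but the normalization behind them is not given in the sources used here. The median of the arrays' medians was 3.21.

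Processed signals of spots not marked as outliers were averaged per probe. Detection required that 50% or more of a probe's spots exceed background by the scanner's own call, which 18.6% of probe values met. Arrays were scaled to the 75th percentile of the 508 probes detected on all arrays, floored at 5.65 (log2 2.50) and log2 transformed. The brightest probe stood for a name, and names detected on at least 6 arrays were tested. The threshold was an adjusted p of 0.05.

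Groups were compared with limma 3.58.1 (R 4.3.3) without covariates, 2-sided, adjusted by Benjamini-Hochberg over all tested names or deposited probes. The fit was also run on simulated data with independent, normally distributed names and shifts larger than any member difference in the main fit. That setting is unlike these sera, so it does not show how the fit performs on them. Correlations used 2-sided permutation tests with 100000 resamples, enumerated exactly within slides, on scipy 1.17.1. Alternatives changed the scaling, floor, background correction, filter, probe, samples and test. Normexp used the median spot signal, since the files have no mean signal column, and added an offset of 50. Leaving out the 4 arrays with the fewest names, every fit of the dimmer miR-486-3p probe, the linear scale and leaving out arrays within slides were chosen after seeing the data.

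The miRNAs and lists were chosen with earlier results of these data known. By rule the text names the members, the 5 tested human names most correlated with each, up to 4 tested markers of each cell list, by their r with miR-451a, and miR-23a-3p. MiR-181a-5p, the remaining tested leukocyte marker, was named after its value was seen.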

Additional observations from a re-analysis of the deposited data

Results flagged for a closer look

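In sets of 4 arrays of one group on one slide, 3 arrays stood apart from the other 3 by more than Dixon's critical value, out of 25 sets checked, and chance flags about 1 in 20 sets. MiR-451a was at 9.56 in healthy replicate 22 on slide 1, where the others were at 5.05 to 5.33. MiR-144-3p was at 8.26 in healthy replicate 19 on slide 2, where the others were at 5.06 to 5.28. The deposited value of the brighter miR-486-3p probe was 2.24 in healthy replicate 16 on slide 3, where the others were at 1.10 to 1.26.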

How the results depend on the processing

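The difference between HCM and healthy cats kept its sign in 13 of 13 alternatives for miR-451a (-0.93 to -0.06) and miR-144-3p (0.21 to 0.83), and when any 1 array was left out (-1.24 to -0.36 and 0.17 to 0.60). Among the alternatives, the lower floor and the looser and stricter detection filters repeated the main values (-0.90 and 0.41), since they could not move these names. For miR-486-5p it turned to -0.045 with quantile normalization, and leaving out 1 array gave -0.10 to 0.23, below 0 without HCM replicate 5, 6 or 8 or healthy replicate 15, 20 or 23. The number of names called, 0 in the main fit, was 2 with the lower floor, 4 on the deposited values, 4 on the total gene signal and 1 with the permutation rank test. The call of the dimmer miR-486-3p probe (1.03) was lost on floored scanner values (0.049), without the 4 arrays with the fewest names (1.0001) and with the permutation rank test (median difference 1.355), and leaving out 1 array gave 0.931 to 1.148. The correlation of miR-451a with miR-144-3p no longer passed at 0.433 (75th percentile over all probes), 0.462 (quantile), 0.494 (normexp), 0.488 (deposited values), 0.486 (total gene signal) and 0.474 (without the 4 arrays), and was 0.432 to 0.615 when 1 array was left out. That of miR-451a with miR-486-5p passed on residuals from group and slide (0.488), and that of miR-144-3p with miR-486-5p did not without the 4 arrays (0.557). No paired analysis was possible because the groups share no replicate number. Dim probes limit miR-486-3p in both groups, since its 4 probes were detected on 1, 0, 0 and 0 of the 23 arrays. In HCM 11 of 77 and 5 of 75 spots of the 2 deposited probes were well above background, and in healthy cats 0 of 82 and 0 of 83.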
